A study of Homo sapiens with 6 samples.

Results

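The levels of 10 genes, EGR1, EGR2, EGR3, NR4A1, IER2, IER3, IER5, KLF2, KLF6 and KLF10, were followed in drug-resistant breast cancer cells with and without cyperotundone (CYT). The genes were taken by name from a deposited table of 58302 genes, and each name matched 1 gene. RNA was sequenced from 3 control and 3 CYT libraries of MDA-MB-231-DR, a doxorubicin-resistant derivative of MDA-MB-231, which is an established line of triple-negative breast cancer. CYT is a sesquiterpenoid ketone of sedge rhizomes. The study asked which transcripts CYT changes in cells that resist doxorubicin. According to the methods, the resistant cells were kept in medium with a low concentration of doxorubicin, so the control group is not a drug-free parental line. The control group was labelled with the cell line alone and the CYT group with the same line treated with CYT. The dose of CYT, the hours of exposure and the vehicle of the control cells are not given for these libraries in the sources used here. The labels number the libraries 1 to 3 in each group but do not say that they came from separate cultures, so all p-values measure only the spread between these samples, which may be technical.

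Immediate early genes are transcribed within minutes of a growth factor, stress or cytokine signal, from factors already present in the cell and without new protein synthesis. Serum response factor (SRF) with its ternary complex partners of the ELK family, and the cAMP response element binding protein CREB, carry the signal from the MAP kinases to many of their promoters. The transcripts are short-lived, and most of the proteins are themselves transcription factors. EGR1, EGR2 and EGR3 are zinc finger factors that bind the same GC-rich site and are held back by the corepressors NAB1 and NAB2. NR4A1 (NUR77) is an orphan nuclear receptor. IER2 and IER5 are related nuclear proteins with no zinc finger, while IER3 (IEX-1) is an unrelated short-lived protein that affects survival signalling. KLF2, KLF6 and KLF10 belong to the Krüppel-like zinc finger family. KLF2 is a target of the ERK5 and MEF2 pathway, KLF6 is described as a tumor suppressor, and KLF10 (TIEG1) is induced early by TGF-beta.

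Of the promoter windows with a signal-response motif, those with a CArG box (EGR1 and EGR2) or a MEF2 site (KLF2) are printed here, as the sites of the factors named above. The windows are the 250 bases before a RefSeq transcript start on GRCh38.p14, printed 5′ to 3′ on the strand of the gene. Capitals mark a CArG box (the site bound by SRF), the cAMP response core TGACG or its reverse complement CGTCA, and a MEF2 site. The window of EGR1 is at chr5:138465229-138465478 on the plus strand, that of EGR2 at chr10:62816367-62816616 on the minus strand, and that of KLF2 at chr19:16324576-16324825 on the plus strand.
EGR1: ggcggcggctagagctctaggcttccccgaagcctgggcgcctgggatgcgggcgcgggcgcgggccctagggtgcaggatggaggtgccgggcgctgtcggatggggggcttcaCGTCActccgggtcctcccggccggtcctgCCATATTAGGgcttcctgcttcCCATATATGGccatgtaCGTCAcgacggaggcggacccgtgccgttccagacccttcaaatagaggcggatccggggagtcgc
EGR2: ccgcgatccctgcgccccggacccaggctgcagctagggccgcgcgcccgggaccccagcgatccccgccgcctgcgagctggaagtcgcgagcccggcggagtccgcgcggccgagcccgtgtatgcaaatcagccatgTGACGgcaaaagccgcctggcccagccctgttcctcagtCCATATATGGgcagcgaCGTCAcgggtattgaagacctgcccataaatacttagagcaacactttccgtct
KLF2: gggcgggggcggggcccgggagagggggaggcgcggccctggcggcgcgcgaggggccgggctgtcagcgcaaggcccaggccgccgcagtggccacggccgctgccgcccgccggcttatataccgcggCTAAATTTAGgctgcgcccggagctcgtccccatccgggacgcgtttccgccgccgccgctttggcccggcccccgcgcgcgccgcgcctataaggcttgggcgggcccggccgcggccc

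In the EGR1 window, the CArG boxes CCATATTAGG and CCATATATGG lay at positions -105 to -96 and -83 to -74, counted back from -1 as the base just before the start. The TGACG core was at -135 to -131 and at -66 to -62. The EGR2 window held the CArG box CCATATATGG at -71 to -62, with TGACG cores at -110 to -106 and -54 to -50. The other 2 EGR2 windows, at more upstream starts, held neither motif. The KLF2 window held the MEF2 site CTAAATTTAG at -120 to -111 and 4 GC boxes (GGGCGG), and no CArG box, and its last bases lie within the KLF2 exon of GENCODE release 29. All motifs were searched on both strands, and no 2 matches of different motifs overlapped in the windows of these genes. Over 35116 windows of the same length, 1.16% held a CArG box, 21.2% TGACG, 2.80% a MEF2 site and 42.6% GGGCGG. At least 2 CArG boxes were found in 0.0313% of windows (11 in all), and a CArG box together with TGACG in 0.194%. The table matched 7 of the 10 genes, and EGR3, IER3 and KLF10 had no entry. Of the remaining windows, IER2 held 1 TGACG core and 3 GC boxes, KLF6 2 GC boxes and NR4A1 1 GC box, and IER5 held none of these motifs. The sequence TATAAA, present in 10.7% of windows, was in none of the 10 windows of these genes.

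The 3 control libraries held 14050849 to 17770102 counts and the 3 CYT libraries 13056270 to 14106017, and 15572 genes passed the filter on low counts. CYT replicate 2 stood somewhat apart, with a correlation of 0.904 and 0.905 to the other CYT libraries over log2 CPM, against 0.953 to 0.971 for the other pairs. Without this library no call of the 10 genes changed. The mesenchymal marker VIM was abundant, at 2459 CPM in control and 996 CPM in CYT libraries (log2 fold change -1.30, edgeR adjusted p = 0.00535), while CD44 was at 139 and 122 CPM and KRT18 at 279 and 138 CPM. Receptor genes absent from triple-negative cells were near 0, with at most 4 counts of ESR1 and at most 3 of PGR in any library, and CDH1 had 0 counts in the control libraries and at most 16 in CYT. The 5 luminal and epithelial markers summed to 4.96 to 5.38 CPM in control and 3.74 to 5.20 CPM in CYT libraries, and the 3 endothelial and fibroblast markers to 1.49 to 3.02 and 1.59 to 2.06 CPM. The 3 immune markers summed to 0.213 to 1.37 CPM in control and 4.05 to 4.34 CPM in CYT, of which nearly all was CD14 (0.733 against 3.90 CPM). PTPRC had 0 counts in control and at most 7 in any CYT library, and CD3E had 0 counts in all 6 libraries. The part of VIM and CD14 in the results on the 10 genes was not tested.

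The 10 genes did not move as a block. EGR1, EGR2, EGR3 and KLF10 were higher in CYT libraries, IER2, IER3 and KLF2 were lower, and NR4A1, IER5 and KLF6 did not pass the test. A call means a Benjamini-Hochberg adjusted p under 0.05 over all 15572 genes in edgeR's quasi-likelihood test. By that criterion 28.6% of all genes tested were called, 15.7% higher and 12.9% lower, against 4 genes higher and 3 lower among the 10. With the replicate number as a block, 3120 genes were called higher and 3089 lower, and the calls of the 10 genes were unchanged. Their median log2 fold change was 0.24, and that of all genes tested was 0.0064. In 6 of the 10 genes every CYT library lay on the same side of every control library, which was the case for 46.1% of all genes tested. All 10 genes passed the filter, but EGR3 passed only through the CYT libraries, since no control library exceeded 0.710 CPM. Its call therefore adds no support to the count of 4, nor its lack of overlap to the count of 6. An exact two-sided permutation test of 3 against 3 libraries cannot go below 0.1, which is the value it gave for each of the 6 genes without overlap. In bulk RNA, fewer cells that express a gene and less of its RNA per cell cannot be told apart.

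**Figure D1:**
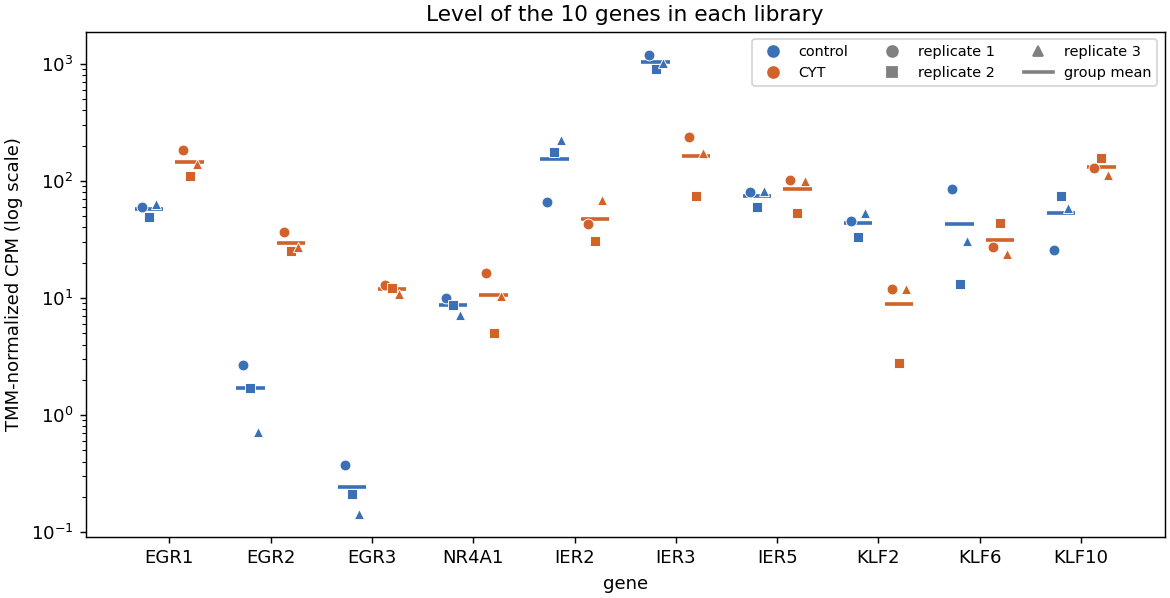
TMM-normalized CPM (log axis) of each of the 10 genes in each of the 6 libraries, with control and CYT libraries in separate colours, a marker shape for each replicate number and a bar at the group mean. EGR2 and EGR3 show the widest gap upward and IER3 and KLF2 the widest gap downward, while the groups of NR4A1, IER2, IER5 and KLF6 overlap.

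EGR1, EGR2 and EGR3 all rose under CYT. EGR1 (ENSG00000120738, chr5:138465490-138469315, plus strand, GRCh38, 2 exons) was at 59.95, 48.8 and 62.9 CPM in the control libraries and at 185, 109.6 and 138 CPM in the CYT libraries. The groups were apart, with the lowest CYT library 1.74 times the highest control library, and CYT replicate 1 was the highest of its group. The mean went from 57.2 ± 7.43 CPM (SD, n = 3) to 144 ± 38.1 CPM (SD, n = 3), a log2 fold change of 1.33 (SE 0.31, 95% interval 0.65 to 2.02, edgeR adjusted p = 0.0111). Without CYT replicate 1 the log2 fold change was 1.11 and the edgeR adjusted p was 0.0536, so the call rested on that library.

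EGR2, a factor best known from myelinating Schwann cells and from immune tolerance, is on the minus strand at chr10:62811996-62919900 (ENSG00000122877). It had 43, 32 and 10 counts in the control libraries and 517, 354 and 346 counts in the CYT libraries. The corresponding levels were 2.67, 1.70 and 0.719 CPM in control and 36.5, 25.2 and 27.5 CPM in CYT. Even the lowest CYT library was 9.45 times the highest control library, although the control libraries themselves differed by 3.71-fold. The log2 fold change was 4.12 (SE 0.49, 95% interval 3.02 to 5.21, edgeR adjusted p = 0.000748), a fold of 17.3.

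EGR3, which shares its binding site with EGR1 and is known from T cells and muscle spindles, is on the minus strand at chr8:22687659-22693302 (ENSG00000179388). The control libraries held 6, 4 and 2 counts, and the CYT libraries 184, 170 and 137. The 12 counts summed over control libraries have an exact Poisson 95% interval of 6.20 to 21.0, which covers counting error only, against 491 summed counts in CYT. The CYT libraries were close to each other, at 12.98, 12.1 and 10.9 CPM, and the lowest of them was 29.3 times the highest control library. The log2 fold change was 5.57 (SE 0.47, 95% interval 4.52 to 6.62, edgeR adjusted p = 0.000312). On the log2(FPKM + 1) scale in limma, where the added constant exceeds the values of both genes in control cells, the log2 fold changes shrank to 1.71 for EGR2 and 1.18 for EGR3, and both were still called.

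NR4A1 is expressed from chr12:52022832-52059507 on the plus strand (ENSG00000123358) and is an activity-regulated nuclear receptor with roles in apoptosis. It was at 10.04, 8.79 and 7.19 CPM in control libraries and at 16.4, 5.05 and 10.4 CPM in CYT libraries. The CYT values lay on both sides of all 3 control values, with CYT replicate 1 the highest and CYT replicate 2 the lowest of the 6 libraries. The log2 fold change was 0.29 (SE 0.43, 95% interval -0.68 to 1.26, edgeR adjusted p = 0.652). It changed sign without CYT replicate 1, to -0.17 (edgeR adjusted p = 0.819), so no direction was resolved at this spread.

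Of the 3 IER genes, IER3 and IER2 fell under CYT and IER5 did not pass the test. IER3 is a compact 1356 bp gene on the minus strand of chromosome 6 (ENSG00000137331, chr6:30743199-30744554) that modulates NF-kappaB and ERK signalling. It had by far the highest level of the 10 genes in control cells, with 19065, 17083 and 14038 counts, or 1182, 909.6 and 1009 CPM. In the CYT libraries it had 3379, 1036 and 2176 counts, or 238, 73.7 and 173 CPM. Every control library was above every CYT library, and the lowest control library was 3.82 times the highest CYT library. Within the CYT group, replicate 2 was 2.79 times below the mean of the other replicates. The mean went from 1034 ± 138 to 162 ± 82.9 CPM (SD, n = 3 each), a log2 fold change of -2.68 (SE 0.42, 95% interval -3.63 to -1.73, edgeR adjusted p = 0.00224). Without CYT replicate 2 IER3 was still called.

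IER2, a nuclear protein linked to cell motility, lies at chr19:13150415-13154908 on the plus strand (ENSG00000160888). Its control libraries were at 65.8, 178 and 222 CPM and its CYT libraries at 42.7, 30.8 and 69.0 CPM. The groups overlapped, since control replicate 1 was below CYT replicate 3 and 3.03 times below the mean of the other control libraries. IER2 fell by 1.71 on the log2 scale (SE 0.48, 95% interval -2.78 to -0.63, edgeR adjusted p = 0.0257). The call was lost without control replicate 2 (log2 fold change -1.62, edgeR adjusted p = 0.0638), control replicate 3 (-1.38, 0.0988) or CYT replicate 1 (-1.64, 0.0783).

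IER5, which is reported to act with heat shock factor HSF1, lies at chr1:181088712-181092899 on the plus strand (ENSG00000162783). It was at 80.8, 59.6 and 81.7 CPM in control libraries and at 101, 53.2 and 99.8 CPM in CYT libraries. CYT replicates 1 and 3 were above the control libraries and CYT replicate 2 was below them. The log2 fold change was 0.19 (SE 0.33, 95% interval -0.56 to 0.94, edgeR adjusted p = 0.699).

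Of the 3 KLF genes, KLF10 was called higher, KLF2 was called lower and KLF6 did not pass the test. KLF10, a repressor with a TGF-beta response, lies at chr8:102648779-102655902 on the minus strand (ENSG00000155090). It was at 25.7, 73.9 and 58.3 CPM in control libraries and at 129, 156 and 111 CPM in CYT libraries. The groups were apart, with the lowest CYT library 1.51 times the highest control library, while control replicate 1 was 2.57 times below the mean of the other control libraries. KLF10 rose by 1.33 on the log2 scale (SE 0.40, 95% interval 0.43 to 2.22, edgeR adjusted p = 0.0333). This call was the least stable of the 7 when libraries were left out. It was lost without control replicate 1 (log2 fold change 0.98, edgeR adjusted p = 0.0899), control replicate 3 (1.38, 0.0911), CYT replicate 1 (1.34, 0.0727) or CYT replicate 3 (1.44, 0.0604).

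KLF2, an anti-inflammatory factor of endothelial cells and lymphocytes, lies at chr19:16324817-16327874 on the plus strand (ENSG00000127528). It was at 45.0, 33.3 and 53.6 CPM in control libraries and at 12.0, 2.78 and 11.9 CPM in CYT libraries. The groups did not overlap, and the lowest control library was 2.78 times the highest CYT library. CYT replicate 2, with 39 counts, was 4.31 times below the mean of the other CYT libraries. The mean went from 44.0 ± 10.2 to 8.89 ± 5.30 CPM (SD, n = 3 each), a log2 fold change of -2.30 (SE 0.52, 95% interval -3.46 to -1.15, edgeR adjusted p = 0.00987). The call was kept in each fit without 1 library, with an edgeR adjusted p of at most 0.0366.

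KLF6 lies at chr10:3775996-3785281 on the minus strand (ENSG00000067082). It was the least reproducible of the 10 genes in control cells, at 85.4, 13.2 and 30.8 CPM, against 27.2, 43.3 and 23.5 CPM in CYT libraries. Control replicates 1 and 2 were the highest and the lowest of all 6 libraries and differed by 6.49-fold. The log2 fold change was -0.46 (SE 0.58, 95% interval -1.77 to 0.85, edgeR adjusted p = 0.590). Without control replicate 1 it turned to 0.49 (edgeR adjusted p = 0.511).

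**Figure D2:**
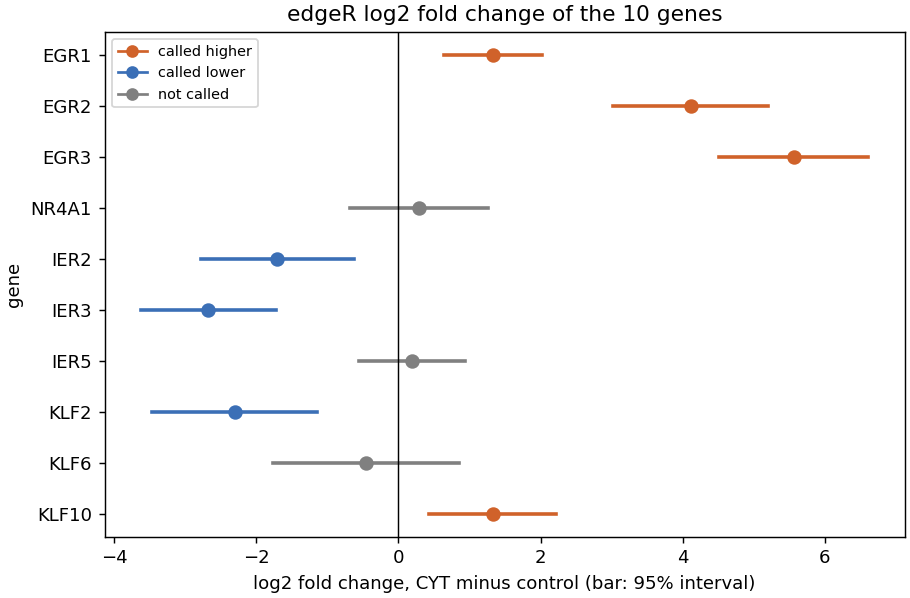
Log2 fold change of CYT minus control for each of the 10 genes from edgeR, with its 95% interval as a horizontal bar and colours for genes called higher, called lower and not called. EGR3 (5.57) and EGR2 (4.12) lie farthest to the right and IER3 (-2.68) farthest to the left, and the intervals of NR4A1, IER5 and KLF6 cross 0.

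The calls of the 10 genes were unchanged under all 10 alternative fits that kept the 6 libraries (another tool, scaling, filter, unit, replicate block or correction for GC content and length) and without CYT replicate 2. EGR2, EGR3, IER3 and KLF2 were called in 16 of 16 alternative fits (these 10 and the 6 without a library), EGR1 in 15, IER2 in 13 and KLF10 in 12. EGR3 passed the filter on low counts only through the CYT libraries, so its 16 calls add no support. NR4A1, IER5 and KLF6 were called in 0 of 16. The number of the 10 genes called higher was 2 without CYT replicate 1, in place of 4.

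**Figure D3:**
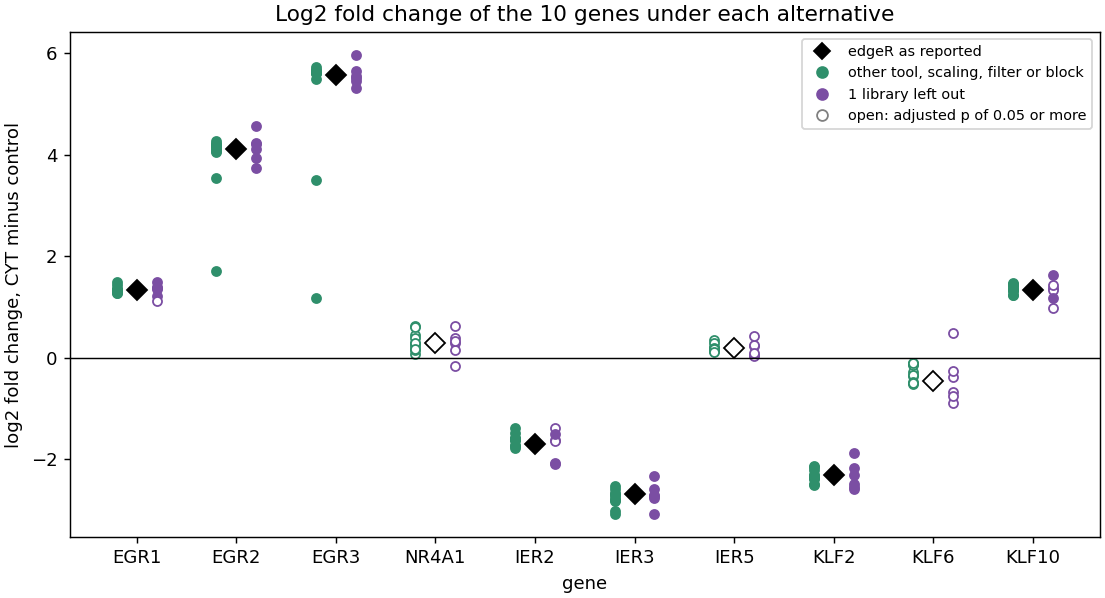
Log2 fold change of CYT minus control for each of the 10 genes as reported (black diamond), with another tool, scaling, filter, unit or block, and with 1 library left out. All 7 called genes stay on their side of 0 in every alternative, NR4A1 and KLF6 cross 0 when 1 library is left out, and the lowest EGR2 and EGR3 values (1.71 and 1.18) are those of limma on log2(FPKM + 1).

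Levels were compared between genes as CPM per kb of exonic length, taken from GENCODE release 29 with overlapping exons merged. Merged over all transcripts, this length can exceed that of any single transcript. It was 7295 bp against 4837 nt in the longest transcript for NR4A1, 6139 against 4656 for KLF6 and 3689 against 2968 for EGR2. EGR3 had 4855 against 4336, while for EGR1, IER5 and KLF2 the lengths were equal. Levels per kb of NR4A1, KLF6, EGR2 and EGR3 may thus be understated. In control libraries IER3 stood apart at 762 ± 102 CPM per kb (SD, n = 3). IER2 (50.5 ± 26.1), KLF2 (21.8 ± 5.03), EGR1 (18.2 ± 2.37), IER5 (17.7 ± 2.99), KLF10 (13.2 ± 6.14) and KLF6 (7.02 ± 6.13) followed in CPM per kb. Each gene of this run overlapped its next neighbour across libraries, so the order of neighbours was not resolved. Below them, NR4A1 (1.19 ± 0.196), EGR2 (0.460 ± 0.264) and EGR3 (0.05004 ± 0.0241 CPM per kb) were each separated from the gene before.

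In CYT libraries the order was IER3 (119 ± 61.1), EGR1 (46.0 ± 12.1), KLF10 (33.0 ± 5.63), IER5 (20.2 ± 6.497) and IER2 (15.5 ± 6.36 CPM per kb). EGR2 (8.06 ± 1.61), KLF6 (5.11 ± 1.71), KLF2 (4.41 ± 2.63), EGR3 (2.47 ± 0.216) and NR4A1 (1.45 ± 0.775 CPM per kb) were lower. Only KLF10 and IER5, and IER2 and EGR2, were neighbours without overlap in this order.

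The EGR genes also changed in their proportions. Their summed level went from 18.7 ± 2.33 to 56.5 ± 13.8 CPM per kb (SD, n = 3 each). EGR1 made up 97.2 ± 1.49% of that sum in control and 81.1 ± 1.90% in CYT libraries. EGR1 was 26.4 to 103 times EGR2 per kb in the control libraries and 5.11 to 5.97 times in the CYT libraries. It was 249 to 677 times EGR3 in control and 14.02 to 22.1 times in CYT. The denominators of both ratios were small in control libraries, with at most 43 counts of EGR2 and 6 of EGR3.

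Since IER3 was so abundant, the sum over the 10 genes moved with it. The summed level was 1327 to 1558 CPM in control and 512 to 801 CPM in CYT libraries (1470 ± 125 and 663 ± 145 CPM, SD, n = 3 each). IER3 held 70.2 ± 5.08% of the counts of the 10 genes in control and 23.3 ± 7.94% in CYT libraries. Without IER3 the sum of the other 9 was 437 ± 72.6 CPM in control and 501 ± 62.1 CPM in CYT libraries, and the groups overlapped (376 to 517 and 438 to 562 CPM). Per kb, IER3 was 38.1 to 47.1 times IER5 in control and 4.28 to 7.29 times in CYT libraries. KLF10 was 0.288 to 1.12 times KLF2 per kb in control and 4.71 to 28.3 times in CYT.

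**Figure D4:**
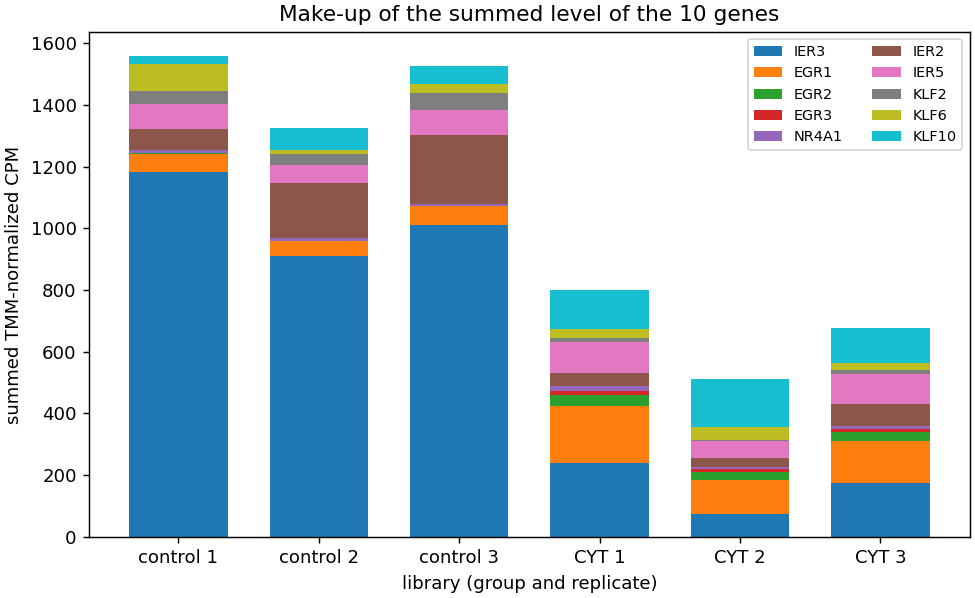
Stacked bars of the TMM-normalized CPM of the 10 genes in each of the 6 libraries, with a colour for each gene. IER3 fills most of the control bars (1327 to 1558 CPM in all) and 14.4 to 29.8% of the CYT bars (512 to 801 CPM), while the EGR1 and KLF10 segments are larger in CYT libraries.

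CYT replicate 2 was the lowest CYT library for 7 of the 10 genes (43.3% of all genes tested) and the highest for 2 (43.8%). CYT replicate 1 was the highest of its group for 7 of the 10 (25.9% of all genes) and the lowest for 0 (26.9%). Among control libraries, replicate 2 was the lowest for 5 of the 10 genes (39.1% of all genes) and replicate 1 the highest for 5 (37.3%). The genes with the widest spread within a group were KLF6 in control and KLF2 in CYT libraries, and the part of library quality in this spread was not tested.

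Most of the 10 genes are compact. The span was under 10 kb in 8 of them, against 107905 bp for EGR2 and 36676 bp for NR4A1. Each of the 10 has at most 4 exons in its longest transcript, and IER2, IER3 and IER5 have 1. The exonic length was below the median of tested protein-coding genes in 8 of the 10 (median of the 10 genes 3846 bp, of 12755 coding genes 5099 bp), and the GC content above it in 8 (53.6% against 48.5%). Correcting each library for GC content and length changed 0 of the 10 calls. The exons of 4 of the genes overlap another annotated gene, and whether the counting used strand is not stated. IER3 shares 359 exonic bp with the antisense gene IER3-AS1, which had 2, 3 and 2 counts in control and 24, 7 and 10 in CYT libraries, few against those of IER3. The genes that overlap IER2, NR4A1 and EGR3 had at most 7 counts in any library.

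The other immediate early genes were mixed as well. Of 44 listed, 42 were tested, 11 were called higher, 9 were called lower and 22 did not pass, with a median log2 fold change of 0.13. The corresponding background is the 15.7% higher and 12.9% lower of all genes. Without control replicate 1 the number called higher was 7, without CYT replicate 2 it was 14, and with the replicate block 14 were called higher and 11 lower. The AP-1 gene FOS had 92, 69 and 62 counts in control and 294, 278 and 213 in CYT libraries, and rose by 2.05 on the log2 scale (SE 0.33, edgeR adjusted p = 0.00237). Its relative FOSB had 36, 26 and 24 counts in control and 1986, 2820 and 6283 in CYT libraries, a log2 fold change of 7.29 (SE 0.61, edgeR adjusted p = 0.000312). FOSB was thus higher in every CYT library, and its CYT libraries differed among themselves more than those of FOS.

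ATF3, a repressor of the CREB family, went from 10.6 ± 3.72 to 77.4 ± 51.4 CPM (log2 fold change 2.87, edgeR adjusted p = 0.00349). GADD45B, an activator of stress kinases, went from 37.9 ± 2.67 to 179.8 ± 26.7 CPM (log2 fold change 2.24, edgeR adjusted p = 0.00100). The closest relatives of NR4A1 are NR4A2 and NR4A3. NR4A2 had 49, 31 and 48 counts in control and 133, 160 and 115 in CYT libraries (log2 fold change 1.88, SE 0.39, edgeR adjusted p = 0.00689). NR4A3 had 5, 11 and 8 counts in control and 65, 125 and 58 in CYT libraries (log2 fold change 3.60, SE 0.51, edgeR adjusted p = 0.00150), but, like EGR3, it passed the filter only through the CYT libraries, so its call adds no support to the count of 11. Whether the changes of NR4A2 and NR4A3 differed from that of NR4A1 was not tested.

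EGR4, the remaining EGR gene, had 0 counts in all control libraries and 3, 5 and 9 in CYT libraries. It was not tested, and set against a floor of 3 counts per control library its level was at least 2.28-fold higher, which covers counting error only. IER5L, the relative of IER5, was at 40.8 CPM in control and 40.3 CPM in CYT libraries (log2 fold change -0.019, SE 0.61, edgeR adjusted p = 0.985), and its sign changed in 6 of 16 alternatives. As for IER5, no direction was resolved.

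Among the genes called lower, the matricellular genes CYR61 (CCN1) and CTGF (CCN2), both targets of SRF and of YAP, fell together. CYR61 had 45187, 32576 and 28593 counts in control and 1176, 804 and 785 in CYT libraries (log2 fold change -5.02, SE 0.35, edgeR adjusted p = 0.000188). CTGF went from 884 ± 136 to 148 ± 25.3 CPM (log2 fold change -2.58, SE 0.29, edgeR adjusted p = 0.000639). AMOTL2, an angiomotin that is also a YAP target, had a log2 fold change of -1.70 (SE 0.35, edgeR adjusted p = 0.00692). DUSP4, a phosphatase that removes phosphate from MAP kinases, went from 348 ± 21.1 to 56.4 ± 5.74 CPM (log2 fold change -2.63, SE 0.28, edgeR adjusted p = 0.000521).

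Of 35 regulators upstream of these genes or acting with their products, 8 were called lower, 0 were called higher and 27 did not pass, with a median log2 fold change of -0.13, where 12.9% of all genes tested were lower and 15.7% higher. At an unadjusted edgeR p under 0.05, 1 was higher, and DESeq2 and limma also called 0 higher. The count of lower calls depended on single libraries: it was 1 without control replicate 1, 2 without control replicate 3, 4 without CYT replicate 1, 3 without CYT replicate 3 and 10 without CYT replicate 2. SRF itself was at 146 ± 25.2 and 160.1 ± 66.8 CPM (log2 fold change 0.13, SE 0.37, edgeR adjusted p = 0.824), with a sign that changed when control replicate 2, CYT replicate 1 or CYT replicate 3 was left out. Its coactivator MRTFA (MKL1) went from 31.2 to 9.12 CPM (log2 fold change -1.77, SE 0.45, edgeR adjusted p = 0.0172), a call lost without control replicate 1 (adjusted p = 0.0580) or control replicate 3 (0.0527). MAP2K5 (MEK5), the kinase that activates ERK5, went from 24.7 to 6.53 CPM (log2 fold change -1.92, SE 0.37, edgeR adjusted p = 0.00478) and was called in 16 of 16 alternatives.

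The kinases ARAF and RPS6KA4 (MSK2) were also lower, with log2 fold changes of -1.46 (SE 0.42, edgeR adjusted p = 0.0290) and -1.63 (SE 0.45, edgeR adjusted p = 0.0236). The ARAF call was lost without control replicate 1 (edgeR adjusted p = 0.104), control replicate 3 (0.0775) or CYT replicate 3 (0.0590). That of RPS6KA4 was lost without control replicate 1 (edgeR adjusted p = 0.0669), control replicate 3 (0.0628) or CYT replicate 1 (0.0708). The corepressors of the EGR proteins did not pass the test. NAB1 was at 22.8 CPM in control and 40.5 CPM in CYT libraries (log2 fold change 0.83, 95% interval -0.30 to 1.96, edgeR adjusted p = 0.249). NAB2 was at 40.0 and 34.0 CPM (log2 fold change -0.24, 95% interval -1.34 to 0.87, edgeR adjusted p = 0.755), and its sign changed without CYT replicate 2. With the replicate number as a block, a pairing that the labels do not state, 2 regulators were called higher and 11 lower. Among them MEF2D was higher (log2 fold change 0.94, edgeR adjusted p = 0.0132) and MEF2A (-0.73, 0.0356), MAP2K2 (-1.25, 0.00585) and MAPK3 (-0.94, 0.0207) were newly called lower, all named after their values were seen.

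Of the other 14 KLF genes, 12 were tested, 3 were called higher and 0 lower, with a median log2 fold change of 0.19, where 15.7% of all genes tested were higher and 12.9% lower. At an unadjusted edgeR p under 0.05, 2 were lower, and DESeq2 and limma called 4 higher and 0 lower. KLF9, a glucocorticoid target of the same subfamily as KLF10, had 69, 102 and 43 counts in control and 310, 549 and 245 in CYT libraries (log2 fold change 2.65, SE 0.40, edgeR adjusted p = 0.00195). KLF15, a metabolic regulator, had 42, 55 and 37 counts in control and 333, 228 and 393 in CYT libraries (log2 fold change 3.11, SE 0.37, edgeR adjusted p = 0.000760). The erythroid factor KLF1, named after its values were seen, had 0 counts in all control libraries and 18, 10 and 33 in CYT libraries. Its level was at least 8.20-fold higher against a floor of 3 counts per control library. KLF1 passed the filter only through the CYT libraries, so its call among the 3 is no support for a rise of the family. The median of the 12 genes was also 0.19 with KLF1 set at that bound. With the replicate block, KLF4 (log2 fold change -0.77, edgeR adjusted p = 0.0436) and KLF16 (-1.28, 0.0289) were called lower and KLF7 (1.47, 0.0207) higher, all 3 named after their values were seen.

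**Figure D5:**
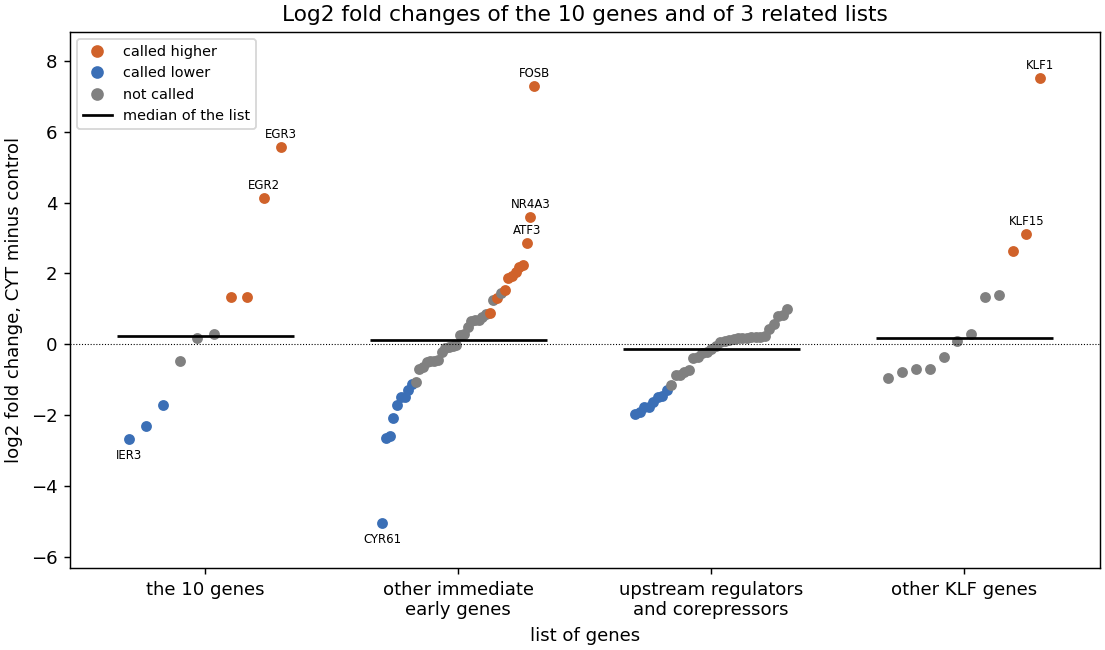
Log2 fold changes of CYT minus control for the 10 genes, 42 other immediate early genes, 35 upstream regulators and corepressors and 12 other KLF genes, each point a tested gene coloured by its call, with a line at the median of each list. The medians lie near 0 (0.24, 0.13, -0.13 and 0.19), while single genes with control counts spread from -5.02 (CYR61) to 7.29 (FOSB). KLF1, which had 0 control counts, is the highest point at 7.52, a fitted value that depends on the prior count of the fit.

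For each called gene, the genes with the most similar pattern were sought among 11407 genes of at least 5 CPM on average. Likeness was the root mean square difference of log2(CPM + 0.1) over the 6 libraries after centring on the control mean. The added 0.1 is not small against the control levels of EGR3 (0.144 to 0.372 CPM). For EGR1 the nearest genes were DLGAP1-AS2 (0.12) and FZD5 (0.14), and for EGR2 YPEL1 (0.40) and PRKAR2A-AS1 (0.46). For EGR3 they were AC137767.1 (0.18) and CRISPLD2 (0.23), and for KLF10 ZNF519 (0.18) and STBD1 (0.19). Among the genes called lower, IER3 was closest to ZNF784 (0.14) and TBL1X (0.14), KLF2 to STEAP3 (0.11) and ATAD3B (0.14), and IER2 to FAM219B (0.31) and ZNF581 (0.40). The 10 genes themselves were left out of the search, and the nearest genes were chosen for their likeness, so their values carry no test.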

How the data were processed

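RNA-seq libraries of 3 control and 3 CYT-treated MDA-MB-231-DR samples were grouped by their titles. The authors removed adapter, low-quality and rRNA reads, aligned the rest with Hisat2 to hg38, and deposited raw counts per gene beside FPKM values. Stringtie is named for the FPKM. The counting program, its annotation and its use of strand are not given in the sources used here.

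Counts were analysed in R 4.3.3 with edgeR 4.0.16, using TMM normalization, filterByExpr with a minimum count of 10, and a quasi-likelihood F test between the groups, adjusted by the Benjamini-Hochberg method over 15572 genes. A gene was called at an adjusted p under 0.05. The SE was the absolute log2 fold change divided by the square root of F, and 95% intervals used t quantiles. The biological coefficient of variation was 37.5%. CPM values are TMM-normalized, and mean ± SD is over 3 libraries. Intervals and floors on counts cover counting error only. Total counts per library were 13056270 to 17770102. Replicates of a group were compared, and the chi-square per gene was at least 25.6 in every pair, so none was counted as a copy of another.

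The members and the gene lists were chosen with earlier results of these data known. The text names all 10 members. From each list it names up to 4 called genes higher and 4 lower with the lowest p, among those averaging 5 CPM or more whose groups did not overlap, and also NAB1, NAB2, SRF, EGR4, NR4A2, NR4A3 and IER5L. Of the regulators called higher with the replicate block, 1 is not reported here. The 2 genes nearest in pattern to each called member are named as well. The labels state no pairing between the groups, and the replicate number was used as a block only in alternative fits. Deviations from the group means correlated by 0.188, 0.458 and 0.124 for same-numbered replicates 1, 2 and 3. Control replicate 1 correlated more with CYT replicate 3 (0.303), and control replicate 3 more with CYT replicate 1 (0.201). Neither the labels nor these values establish the pairing, so calls made only with the block rest on an assumption.

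Alternatives were DESeq2 1.42.0, limma 3.58.1 on log2(FPKM + 1) and log2(FPKM + 0.1), upper-quartile scaling, summed counts without further scaling, no filter, a stricter filter at 5 CPM on average, the replicate block, a spline correction (5 degrees of freedom) for GC content and length with and without the block, a log2 fold change over 1 added to the criterion for a call, and each library left out in turn. Exonic lengths were taken from GENCODE release 29, which holds 58039 of the 58302 identifiers and places all 10 members at the same locus. The edgeR step was run on simulated counts in which a far smaller share of genes was changed than was called in these data. That run does not measure the accuracy of the calls given here. Figures and summaries were made in Python 3.11.15 with pandas 2.3.3.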

Additional observations from a re-analysis of the deposited data

How the results depend on the processing

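Of the 10 genes, 4 were called higher and 3 lower in every alternative that kept all 6 libraries, the criterion with a log2 fold change over 1 included. When 1 library was left out, 2 to 4 were called higher, with 2 without CYT replicate 1, and 2 to 3 lower. The log2 fold change ran from -0.17 to 0.62 for NR4A1 and from -0.90 to 0.49 for KLF6 in these fits, and changed sign at -0.17 without CYT replicate 1 and at 0.49 without control replicate 1. Over all genes tested, 1683 to 3002 were then called higher and 1208 to 2750 lower in place of 2449 and 2002. The number called lower was 1215 without control replicate 1, 1208 without control replicate 3, 1232 without CYT replicate 3 and 2750 without CYT replicate 2. Fewer samples entered each of these fits, and the cause of the changes was not tested. Among the other immediate early genes, 7 to 14 were called higher and 7 to 9 lower, with 7 higher without control replicate 1. Among the regulators, 0 to 1 were called higher and 1 to 10 lower, and among the other KLF genes 3 to 4 higher and 0 to 1 lower, where the 1 higher regulator and the 1 lower KLF gene appeared without CYT replicate 2.

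With the replicate block, 2 regulators were called higher and 2 KLF genes lower in place of 0, and 3120 genes higher and 3089 lower over the whole table. The block changed no call of the 10 genes. The correction for GC content and length gave 3 regulators higher, 6 KLF genes higher, 2 KLF genes lower, and 3621 genes higher and 3521 lower over all genes tested. With the block added, these were 3, 5, 2, 3505 and 3435. Upper-quartile scaling gave 1 regulator higher and 5 lower. It moved the median over all genes, on the log2 scale, from 0.0064 to 0.16 and the share of higher among called genes from 55.0% to 63.9%, and changed no call of the 10 genes. The filter at 5 CPM, which tests fewer genes, gave 1 regulator higher, 5 lower and 1464 genes higher over the whole table. The cause of the changes of these counts was not tested. The control counts of EGR3, EGR2 and NR4A3, at 2 to 43 per library, limit the precision of their folds.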

Other observations

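The deposited FPKM cannot be used to compare levels between these genes. In 92.1% of 10158 genes whose counts were 50 or more throughout, the length implied by count and FPKM equalled, within 1 bp, the sum of every distinct annotated exon, so that bases shared by exons of different transcripts were counted again. It equalled the merged exonic length in 8.38%. All 10 genes were of the former kind. For NR4A1 the implied length was 21372 bp against 7295 bp of merged exons, for EGR2 10651 against 3689 bp, and for KLF6 13529 against 6139 bp, while for EGR1 (3138 bp) and IER5 (4188 bp) both lengths were equal. A comparison of FPKM thus understates NR4A1, EGR2 and KLF6 relative to EGR1. Fold changes within a gene are not touched by the length.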
